A study of Drosophila melanogaster with 42 samples.

Results

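The sex difference in the dissected central nervous system (CNS) of adult *Drosophila melanogaster* was measured on 4 of the 42 arrays of the series, chosen as the arrays titled for Canton S (CS) wild-type CNS. Each array carried, in 2 colours, RNA from the brain and ventral nerve cord of wild-type CS females and of wild-type CS males, with no mutation, transgene or treatment in either sex. A sample pooled about 20 dissected nervous systems from adults whose age was 0 to 24 h by the sample labels and 8 to 24 h by the protocol, and the RNA was amplified before labelling. Females carried the dye Cy5 on replicates 1 and 2 and Cy3 on replicates 3 and 4. Whole heads of CS females and males, about 100 per sample, were compared on 4 other arrays in the same dye arrangement, without amplification, from flies that had recovered from CO2 anaesthesia, whereas flies for the CNS were lightly anaesthetised at dissection. The remaining arrays covered other strains and mutants of the sex hierarchy, of which only the 6 arrays of *fru* mutant against wild-type male CNS are used here.

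Sex in the fly soma is set by a cascade of splicing regulators that ends in 2 transcription factor genes. *doublesex* (*dsx*) makes a male and a female protein, and *fruitless* (*fru*) makes male proteins in a set of neurons that is needed for courtship. The fat body, a liver-like tissue that lines the head and also lies against the brain, is known for strong sex-specific expression, and the yolk protein genes are its classical female products. In RNA from a pooled tissue, fewer cells of one type and less RNA per cell cannot be told apart.

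Values were present for 8214, 8978, 8512 and 8673 of 16320 probes on replicates 1 to 4, and the array medians of the log2 female over male ratio were 0.0049, 0.019, 0.0088 and −0.076. A probe was tested where at least 3 arrays carried a value, which left 8307 probes, 7061 of them with 4 values and 1246 with 3. Scanner intensities were not analysed here, so that ratios, but no levels, are given. Most markers of neurons and glia were measured: *elav*, *nSyb*, *brp*, *ChAT* and *Gad1* had values on all 4 arrays. So did the glial genes *repo*, *alrm*, *moody*, *wrapper*, *Gs2* and *nrv2*. The neuronal genes *VGlut* and *para* had values on only 2 and 1 arrays. The photoreceptor genes *trp*, *inaD* and *Arr1* and the muscle genes *Act88F*, *Prm*, *bt* and *Mlc2* were also measured on 4 arrays. The photoreceptor gene *Arr2* had a value on 1 array and the muscle gene *up* on 2. The samples thus did not lack RNA of all eye and muscle genes. Of the fat body markers, the 3 yolk protein genes, *fit* and *apolpp* had 4 values, *Lsp2* had 3 and *Fbp1* had none.

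At an adjusted p under 0.15 in limma's moderated test with a term for the dye, 29 of 8307 probes (0.349%) differed between female and male CNS. Of these 19 (0.229% of those tested) were higher in females and 10 (0.12%) in males. The females' excess lay in *fit*, in the yolk protein gene *Yp1*, in secreted proteins of the humoral response (*TotC*, *Def*) and in *dhd*, *Cht2*, *Obp99a* and *Eh*, and the males' excess in the serotonin receptor gene *5-HT2B*, in *Acp98AB*, in *CG32625* and other genes known by number, and at 4 probes unnamed here. Of the 29 probes 10 differed by more than 2-fold, 26 had the same sign on every array that measured them, and 9 had only 3 values. Differences were few: an unadjusted p under 0.05 was reached by 403 probes, where 415 would be reached by chance alone, and the smallest difference called was 1.56-fold. The 4 arrays carried independent biological samples by the protocol. The p-values rest on the spread left between arrays of the same dye orientation. limma moderates that spread towards a value shared over all probes.

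How far single calls rested on 1 array or on the scaling differed among the 29. Of the 20 called probes with 4 values, 6 were called whichever array was left out (*fit*, *Cht2*, *CG32625* and probes 12469, 15903 and 6109) and 3 were lost whichever was left out (*Def*, *CG31775* and *CG14425*). With the arrays centred on their medians 13 of the 29 calls remained, namely *fit*, *5-HT2B*, *CG7218*, *Cht2*, *CG32625*, *dhd*, *TotC*, *Obp99a*, *Yp1* and probes 12469, 7195, 15903 and 6109. Every estimate kept its sign in these fits.

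**Figure D1:**
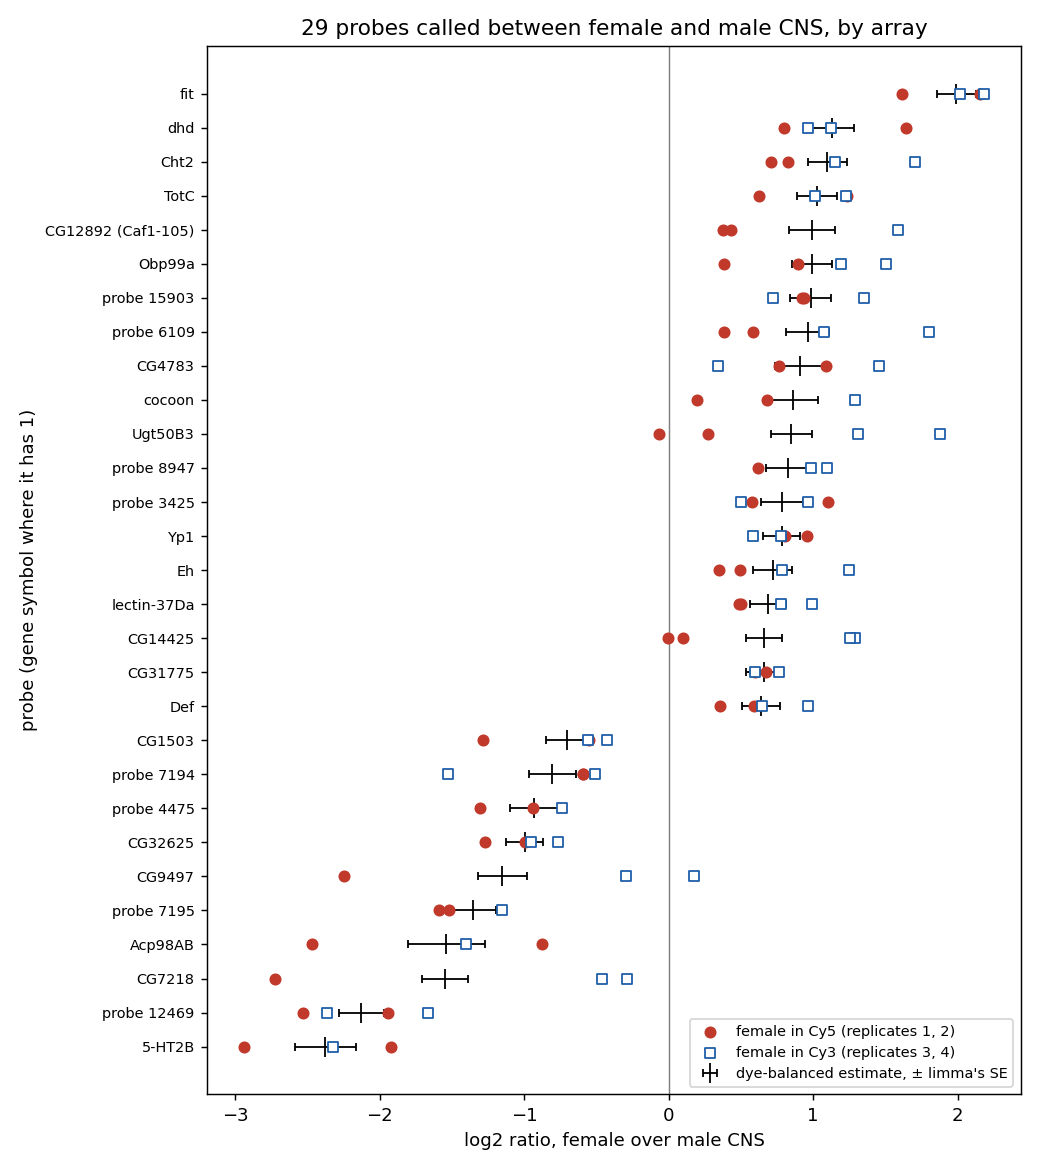
Log2 ratio of female over male CNS on each array for the 29 called probes (horizontal axis), one row per probe. Red circles are the arrays on which females carried Cy5, blue squares the Cy3 arrays, and black bars the dye-balanced estimate with limma's SE. *fit* lies between 1.62 and 2.18 on all 4 arrays and probe 12469 between −2.53 and −1.67, while the squares and circles of *Ugt50B3*, *CG14425* and *CG7218* lie far apart.

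The dye orientation moved these arrays more than sex did. The dye coefficient, which is positive where the RNA labelled with Cy5 read higher, was called for 2788 of the 8307 probes (33.6%), 1369 of them towards Cy5 and 1419 towards Cy3. Its SD over probes was 0.32 on the log2 scale, against 0.18 for the sex coefficient. In the CS heads the order was the reverse, with SDs of 0.20 for dye and 0.28 for sex. In the CNS, arrays with the same orientation correlated across probes at r = 0.395 to 0.545 and arrays of opposite orientation at −0.471 to −0.311, as a description over probes of shared samples. Of the 7061 probes with 4 values, 2890 (40.9%) had one sign on both Cy5 arrays and the other sign on both Cy3 arrays, whereas 435 (6.16%) had a single sign on all 4.

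Genes with large dye coefficients came from many functions. *Serinc*, a membrane protein gene, read 0.93, 0.89, −1.09 and −0.87 on replicates 1 to 4, so that its dye coefficient was 0.94 and its sex difference −0.04 (SE 0.13). *Phm*, which encodes an enzyme that amidates neuropeptides, read 0.79, 0.96, −1.23 and −0.60, with a dye coefficient of 0.90 and a sex difference of −0.02 (SE 0.14). *Idh*, which encodes isocitrate dehydrogenase, behaved likewise, with a dye coefficient of 0.93 and a sex difference of −0.03. For each of these genes both Cy5 arrays were above 0 and both Cy3 arrays below it. In the opposite direction *CG12660* read −0.79, −0.83, 0.96 and 1.95, which gave a dye coefficient of −1.14. The antennal gene *a10* had a dye coefficient of −1.39, but this came from replicate 4, where it read 5.51 against 0.81, −0.74 and 0.10 elsewhere, and without that array the coefficient was −0.03.

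A similar dye pattern was seen on the 6 *fru* CNS arrays, whose RNA was amplified in the same way. CNS sex arrays and *fru* CNS arrays with the same dye in the second channel correlated at r = 0.325 to 0.623, and those with opposite dyes at −0.529 to −0.307. The dye coefficients of both CNS experiments correlated at r = 0.726 over 7765 probes, and those of CNS and CS heads at −0.0899 over 6147. In the *fru* CNS the dye cannot be told apart from the allele combination, since each combination was labelled in a single orientation.

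**Figure D2:**
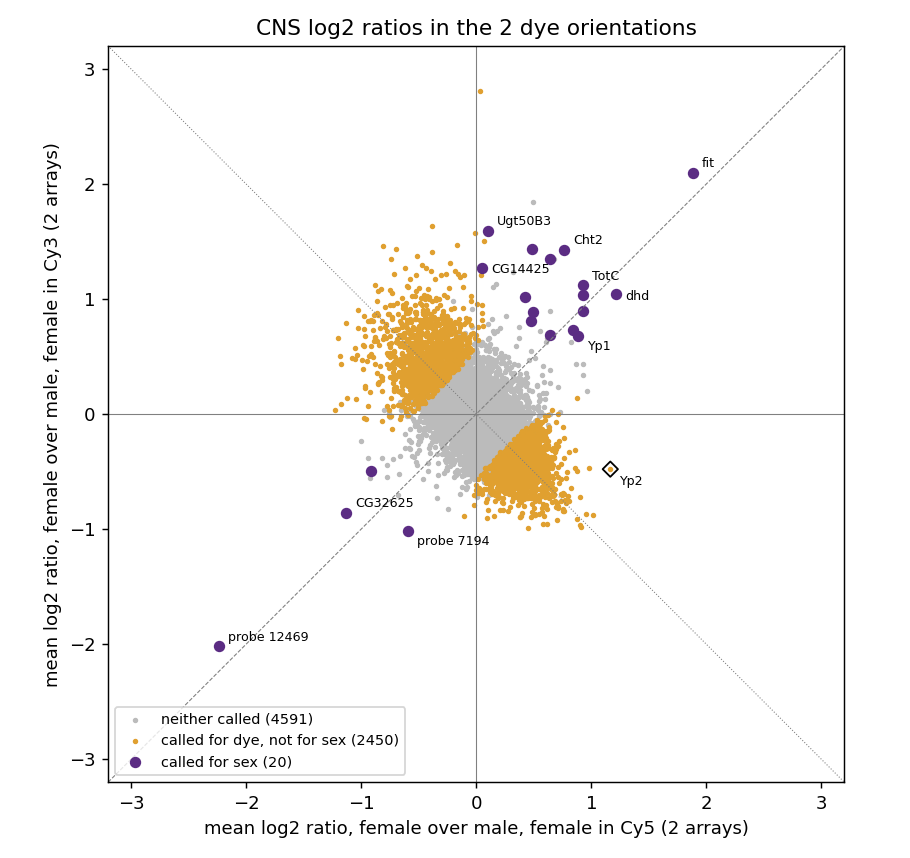
Mean log2 ratio of female over male for the 7061 probes with 4 values, from replicates 1 and 2, whose females carried Cy5 (horizontal axis), and from replicates 3 and 4, whose females carried Cy3 (vertical axis). Orange points (2450) were called for the dye only and spread along the falling dotted diagonal, grey points (4591) were called for neither, and the 20 purple points called for sex lie on the side of a shared sign or near an axis.

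With the dye term in the model the errors of the sex difference were smaller. The median SE of a probe was 0.135 with it, close to the 0.126 of the CS heads, and 0.195 without it. Without the term 5 probes were called, all of them among the 29. Of the 29, 10 were also called for the dye, and for 17 of the 29 the values of the Cy5 and Cy3 arrays did not overlap. *Ugt50B3*, a UDP-glycosyltransferase gene, read −0.07 and 0.27 on the Cy5 arrays and 1.88 and 1.31 on the Cy3 arrays (mean 0.85, SE 0.14, adjusted p 0.0414), and without replicate 3 or 4 the adjusted p was 0.247 or 0.167. *CG14425* read 0.10 and −0.002 against 1.29 and 1.26 (mean 0.66, adjusted p 0.0802), and its other 2 probes gave 0.04 and −0.03. In both genes the excess in females was carried by the Cy3 arrays alone.

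Of the probes with 3 values, 4 were called for both sex and dye, and there one orientation rested on a single array. *CG7218* read −2.72 on replicate 2 against −0.46 and −0.29 on replicates 3 and 4 (estimate −1.55, adjusted p 0.00341). *CG9497* read −2.24 on replicate 2 against 0.17 and −0.29 (estimate −1.15, adjusted p 0.0269). *CG12892*, the gene of a subunit of chromatin assembly factor 1, read 0.38 and 0.43 on replicates 1 and 2 and 1.58 on replicate 3 (estimate 0.99, adjusted p 0.0414). *cocoon* read 0.68 and 0.19 against 1.29 on replicate 4 (estimate 0.86, adjusted p 0.136). The sizes of these 4 differences therefore depended on 1 array each.

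*fit* (*female-specific independent of transformer*), which encodes a secreted protein of the fat body, was the most strongly supported difference. Its log2 ratios were 1.62, 2.15, 2.18 and 2.01, all close together and without a split by dye. The estimate was 1.99 (SE 0.14, n = 4), a 3.97-fold excess in females with an adjusted p of 9.05e-05, and it was called under each of the other processing settings tried except the methods' test. The same probe in CS heads read 2.04, 1.91, 2.80 and 1.01 (1.94, SE 0.27, adjusted p 0.126), and the head less CNS difference was −0.05 (SE 0.33, adjusted p 0.971).

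The yolk protein genes, which encode the main egg yolk proteins, behaved differently from *fit*. *Yp1* read 0.80, 0.96, 0.58 and 0.78 in the CNS, higher in females on every array (1.72-fold, log2 0.78, SE 0.13, adjusted p 0.0347, or 0.267 without replicate 4). *Yp3* read 1.18, 0.57, 0.10 and 0.18 (log2 0.51, SE 0.14, adjusted p 0.504). *Yp2* read 1.14, 1.19, −0.84 and −0.12 (log2 0.34, SE 0.15, adjusted p 0.982) and was called for the dye. *Yp1* alone of the 3 genes was thus called. In all 3 the Cy5 arrays stood above the Cy3 arrays with no overlap, by the least in *Yp1*, which was not called for the dye.

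In CS heads the same 3 probes were among the largest differences, at log2 6.11 (SE 0.33) for *Yp1*, 5.95 (SE 0.32) for *Yp2* and 5.07 (SE 0.43) for *Yp3*. The head less CNS difference was 5.33 (SE 0.38, adjusted p 0.000112) for *Yp1*, 5.60 (SE 0.38, adjusted p 0.000112) for *Yp2* and 4.57 (SE 0.48, adjusted p 0.00303) for *Yp3*. *fit* and the yolk protein genes are all known as fat body genes, and in whole heads the yolk protein ratios exceeded that of *fit* on every array.

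Of 22 tested probes of the fat body list 3 were called, all higher in females (*fit*, *Obp99a* and *Yp1*), where 0.349% of all tested probes were called. An unadjusted p under 0.05 was reached by 9 of the 22, against 403 of 8307 tested probes, and 6 had 1 sign on all 4 arrays. The list's median was 0.03, against −0.004 for all tested probes. Its median on replicates 1 to 4 was 0.34, 0.23, −0.03 and −0.12, higher on the Cy5 arrays. *Lsp2*, a storage protein gene, gave 0.39 (SE 0.16) and *apolpp*, the lipophorin gene, 0.09 (SE 0.14), neither past the threshold. All 6 tested fat body markers had positive estimates, from 0.09 to 1.99, but *fit* and the yolk protein genes among them are known for higher expression in females. Estimates over the whole list reached down to −0.59, for *Obp99b*. The part of fat body RNA in the differences called was not tested.

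*Obp99a* and *Obp99b* encode odorant-binding proteins, small secreted carriers. *Obp99a* read 0.90, 0.38, 1.504 and 1.20, which put females 1.99-fold higher (SE 0.14 on the log2 scale, adjusted p 0.0126), with both Cy3 arrays above both Cy5 arrays. Without replicate 3 or 4 its adjusted p was 0.169 or 0.178. *Obp99b*, measured at −0.99, −0.34, −0.16 and −0.87, stood at −0.59 (SE 0.16, adjusted p 0.501), in the opposite direction on every array but not past the threshold. Of 23 tested probes of the family only that of *Obp99a* was called, where 0.349% of all tested probes were called. The family's median was 0.08.

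Secreted proteins of the humoral immune and stress response gave 2 calls among 28 tested probes, both higher in females, where 0.349% of all tested probes were called. An unadjusted p under 0.05 was reached by 6 of the 28, against 403 of all 8307. *TotC*, a Turandot gene induced by stress, read 0.63, 1.23, 1.01 and 1.23 (2.04-fold, log2 1.03, SE 0.14, adjusted p 0.0122, or 0.267 without replicate 4). *Def*, which encodes the antimicrobial peptide Defensin, read 0.59, 0.35, 0.96 and 0.65 (1.56-fold, log2 0.64, SE 0.13, adjusted p 0.128), and with any 1 array left out its adjusted p was 0.224 to 0.533. Neither gene had an array below 0.35, and the orientations overlapped for *TotC* only.

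*BomS5*, a bomanin peptide gene of the Toll pathway, was also above 0 on every array (0.61, 0.60, 1.06 and 0.20), but did not pass (log2 0.62, SE 0.15, adjusted p 0.348). The median of the list was 0.17, and on replicates 1 to 4 it was 0.33, 0.30, 0.16 and 0.01, so that it fell to near 0 on a single array. The secreted C-type lectin gene *lectin-37Da* was called as well, at 0.50, 0.49, 0.78 and 0.99 (1.61-fold, adjusted p 0.0768), but not without replicate 1, 2 or 4 (adjusted p 0.176, 0.244 and 0.279). In CS heads *TotC* stood at 1.18 (SE 0.36) and *Def* at 0.40 (SE 0.12), neither called there, and neither differed by tissue at the threshold (adjusted p 0.934 and 0.692).

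The largest difference with a gene name was in *5-HT2B*, which encodes a G protein-coupled serotonin receptor. It read −1.92, −2.94 and −2.32 on replicates 1, 2 and 4 and had no value on replicate 3. Males were 5.19-fold higher (log2 −2.37, SE 0.21, 3 arrays, adjusted p 0.00101), with the Cy3 array between the Cy5 arrays. With the dye term shared with the *fru* CNS arrays the estimate was −2.41 (SE 0.50) and was not called (adjusted p 0.322). In whole heads the same probe read −0.09, 0.16, 0.73 and −0.47 (0.08, SE 0.20), around 0 with both signs. The tissues differed by 2.46 (SE 0.34, adjusted p 0.0295).

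No other serotonin gene was called among the 9 tested probes of the list. *5-HT7*, another serotonin receptor gene, read 0.22, 0.22, 0.39 and 0.07 (0.23, SE 0.13), and *5-HT2A* read −0.46, −0.46, 0.62 and 0.95, in step with the dye (0.16, SE 0.13). Dopamine, octopamine, tyramine and histamine genes gave 0 calls of 16 probes, where 0.349% of all tested probes were called. Of the 16, 1 had an unadjusted p under 0.05.

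Among the neuropeptide genes 1 of 25 tested probes was called, where 0.349% of all tested probes were called. *Eh*, which encodes eclosion hormone, a peptide that triggers the shedding of the old cuticle, read 0.49, 0.35, 1.25 and 0.79. Females were 1.65-fold higher (log2 0.72, SE 0.13, adjusted p 0.0785), and the Cy3 arrays lay above the Cy5 arrays. Without replicate 1, 3 or 4 its adjusted p was 0.184, 0.299 and 0.178. Heads gave 0.20 (SE 0.18), with a head less CNS difference of −0.52 (SE 0.23, adjusted p 0.507). *NPF*, the neuropeptide F gene, was at or below 0 on all 4 arrays (−0.01, −0.12, −0.35 and −0.28), with an estimate of −0.19 (SE 0.12, adjusted p 0.984). *FMRFa*, a gene for several amidated peptides, read 0.31, 0.20, 0.23 and 0.17 (0.23, SE 0.12), close together but not past the threshold. The list's median was −0.02.

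General genes of neurons and glia gave no calls, where 0.349% of all tested probes were called. At that share, lists of this size would hold few or no calls. These were 0 of 13 probes for neuronal identity, 0 of 32 for synaptic vesicles and transmitters, 0 of 44 for ion channels, 0 of 16 for neuropeptide receptors, 0 of 16 for the *dpr* family of recognition proteins and 0 of 27 for glia. At an unadjusted p under 0.05 the same lists had 1, 0, 2, 0, 0 and 2 probes, against 403 of all 8307. Their medians lay between −0.02 and 0.07. *brp*, which encodes an active zone protein, stood at 0.24 (SE 0.13), *elav*, an RNA-binding protein gene of neurons, at −0.15 (SE 0.14), and the probes of *repo*, the glial transcription factor gene, at −0.0003 (SE 0.13) and −0.19 (SE 0.12). The glial blood-brain barrier gene *moody* read −0.41, −0.14, −0.60 and 0.01 (−0.29, SE 0.14), and *Tsf1*, the transferrin gene, 0.38, 0.35, 0.19 and 0.32 (0.31, SE 0.12). Photoreceptor (26 probes), muscle (29), haemocyte (11), heat shock (12), activity-regulated (11) and circadian clock genes (15) had 0 calls each, with 1, 0, 3, 0, 1 and 1 probes at an unadjusted p under 0.05. Of the clock genes *vri*, which encodes a repressor of *Clock*, came closest, at −0.29, −0.07, 0.83 and 1.65 (0.53, adjusted p 0.578), with the dye orientations apart.

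**Figure D3:**
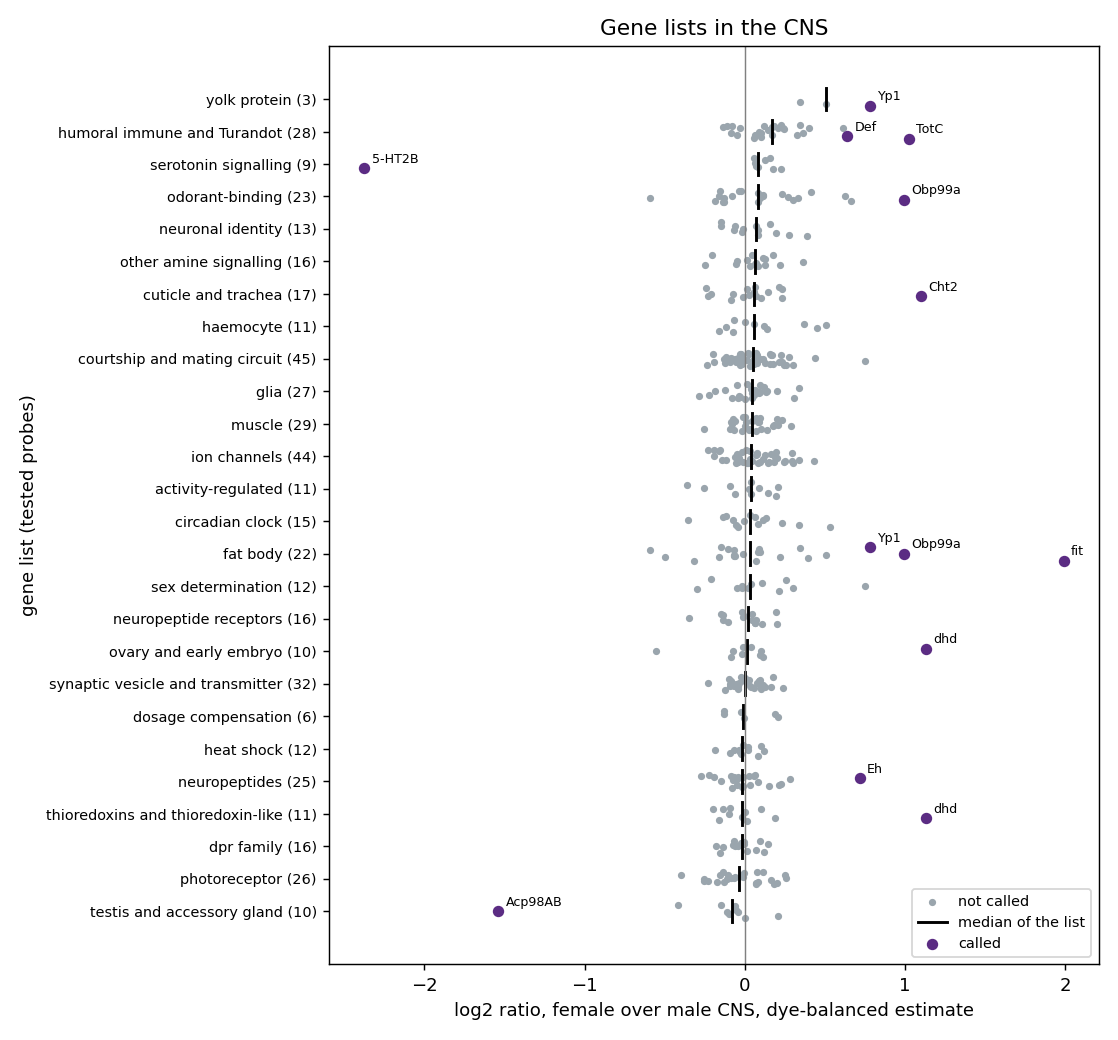
Dye-balanced log2 ratio of female over male CNS (horizontal axis) for every tested probe of 26 gene lists, with the number of tested probes in brackets, lists ordered by their median (black bar). Purple points were called and carry their gene symbol. The lists of neurons, synapses, channels and glia have none, where 0.349% of all tested probes were called. Medians run from −0.08 for testis and accessory gland to 0.51 for the yolk protein genes, and a probe in several lists is drawn in each.

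The sex hierarchy genes themselves gave 0 calls of 12 tested probes, where 0.349% of all tested probes were called. Of the 12, 3 had an unadjusted p under 0.05. *dsx* was represented by probes that pointed in opposite directions. The paper describes separate array features for the transcripts of the male and of the female protein. Which probe reads which transcript was not tested here. Probe 6540 read 0.59, 1.14 and 0.64 on replicates 1, 2 and 4 (0.75, SE 0.17, adjusted p 0.279), above 0 on each. Probe 3820 had values on replicates 1 and 4 only, −0.56 and −1.06, and was not tested. *fru* read 0.39, 0.69, 0.24 and −0.10 (0.30, SE 0.13, adjusted p 0.984), and *tra*, the splicing regulator above both, read 0.23, 0.20, 0.15 and −0.14 (0.11). *y*, the pigment gene *yellow*, had a value on replicate 3 only, −0.23. Dosage compensation genes, whose complex raises the output of the male X chromosome, had 0 calls of 6 probes, of which 0 had an unadjusted p under 0.05. No probe carried the symbol of *roX1* or *roX2*, the RNA genes of that complex, so neither was among these 6. The paper reports *roX2* as more highly expressed in males in the CNS, which could not be examined here under its name.

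Genes known from the germ line and the reproductive tract were called in each direction. *dhd*, a thioredoxin gene needed in the egg to unpack sperm chromatin, read 0.80, 1.64, 0.96 and 1.12 (2.19-fold higher in females, log2 1.13, SE 0.15, adjusted p 0.012), with both orientations overlapping. Without replicate 3 or 4 its adjusted p was 0.173 or 0.276. *dhd* had no value on any CS head array. *Acp98AB*, an accessory gland protein gene, read −2.47, −0.87 and −1.40 on replicates 1, 2 and 4 (2.90-fold higher in males, SE 0.27 on the log2 scale, adjusted p 0.0768), a call that was lost in 6 of 9 other settings. Its only head value was −7.86, on replicate 3. *Taf12L*, a TAF12-like gene, missed the threshold by little at −0.78, −0.76, −0.86 and −0.23 (−0.66, SE 0.14, adjusted p 0.152).

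The other genes of these organs were mostly without values. Over all lists and genes, 0.349% of tested probes were called. Of 40 ovary and early embryo probes 10 were tested, with 1 called (*dhd*) and a median of 0.01. The ovary markers *nanos*, *bcd*, *vas*, *otu* and *Cp36* had no value on any CNS array. Of 40 testis and accessory gland probes 10 were tested, with 1 called (*Acp98AB*) and a median of −0.08. *Mst84Da*, *dj* and *Acp36DE* had no CNS value, and none of the 7 markers of these male organs reached 3 arrays. The part of RNA from reproductive organs was not tested.

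Several further genes were called without belonging to such a group. *Cht2*, a chitinase gene, read 0.83, 0.71, 1.15 and 1.70 (2.14-fold higher in females, adjusted p 0.00728), the Cy3 arrays above the Cy5 arrays. It was the only call of 17 tested cuticle and tracheal probes, where 0.349% of all tested probes were called. *CG32625*, on the X chromosome, read −0.99, −1.27, −0.95 and −0.77 (1.99-fold higher in males, SE 0.13, adjusted p 0.00851). *CG31775* read 0.60, 0.68, 0.60 and 0.77 (1.58-fold, adjusted p 0.083), the narrowest spread among the called probes with 4 values, but with any 1 array left out its adjusted p was 0.173 to 0.405. *CG4783* ranged from 0.34 to 1.46 (1.88-fold, adjusted p 0.0848), with both extremes on Cy3 arrays, and its adjusted p was 0.352 without replicate 4. *CG1503* read −0.55, −1.29, −0.56 and −0.43 (−0.70, adjusted p 0.142), and its call was lost without replicate 2, where the estimate was −0.52, and also without replicate 3 or 4 (adjusted p 0.458 and 0.354).

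The called probes without a gene name included some of the largest differences. Probe 12469 read −2.53, −1.94, −1.67 and −2.37 (4.36-fold higher in males, log2 −2.13, SE 0.16, adjusted p 9.62e-05), with the orientations overlapping. Probe 7195 read −1.52, −1.59 and −1.15 on replicates 1, 2 and 4 (2.56-fold higher in males, adjusted p 0.00728). Probe 7194 read −0.59, −0.59, −0.51 and −1.52 (1.75-fold, adjusted p 0.128), with replicate 4 apart from the other 3, and without that array the estimate was −0.55 and no longer called. Probe 4475 was also higher in males, at −0.93 (adjusted p 0.0785). Among those higher in females, probe 15903 read 0.92, 0.93, 1.35 and 0.72 (0.98, adjusted p 0.0141), and probes 6109, 8947 and 3425 stood at 0.96, 0.83 and 0.78. Probe 3425 was not called without replicate 2, 3 or 4 (adjusted p 0.371, 0.173 and 0.354).

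Of the unnamed probes higher in males, 3 were also tested in heads. Probe 12469 stood at −4.24 (SE 0.18) in heads, a head less CNS difference of −2.11 (SE 0.26, adjusted p 0.00995). Probe 7194 stood at −5.69 (SE 0.16), a difference of −4.88 (SE 0.26, adjusted p 1.73e-05). Probe 7195 stood at −1.73 (SE 0.13), a difference of −0.38 (SE 0.19, adjusted p 0.576). All 3 were called in both tissues, each with the larger male excess in heads, and the tissues differed at the threshold for probes 12469 and 7194.

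Beyond the called probes, the named genes with the smallest p and lower values in females were *CG11368* (−0.69, SE 0.16, adjusted p 0.228), *CG30414* (−0.71, SE 0.16, 3 arrays, adjusted p 0.276), *CG15040* (−0.61, SE 0.16, 3 arrays, adjusted p 0.504) and *eEFSec*, the selenocysteine elongation factor gene (−0.49, SE 0.13, adjusted p 0.477). Each had the same sign on every array that measured it. *Npc2h*, of a sterol-binding family, read −0.84, −1.10, −0.01 and −0.06 (−0.50, adjusted p 0.36), with nearly the whole difference on the Cy5 arrays.

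The comparison with whole heads asks which sex differences of the head are also seen in nervous tissue. In CS heads, tested in the same way, 78 of 8430 probes (0.925%) were called, 55 of them higher in females. Of these 78, 59 were tested in the CNS, 41 had the head's sign there and 7 were called. In the other direction, 17 of the 29 CNS probes were tested in heads, 14 had the same sign, and 7 had no value on any head array. The share of equal signs over all probes tested in both tissues was not computed. Over those 6147 probes the sex differences of CNS and heads correlated at r = 0.187. A direct test of head less CNS called 19 of 6147 probes (0.309%), 13 with the higher female over male ratio in heads, and 6 of the 29 CNS probes were among them. Tissue, amplification and anaesthesia cannot be told apart in this test.

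A positive head less CNS value is a higher female over male ratio in heads, not always a larger sex difference there. *5-HT2B* stood at 0.08 in heads and −2.37 in the CNS, and *CG7218* at 0.21 and −1.55. Apart from the yolk protein genes and *5-HT2B*, the value was highest in *CG11141*, which read 2.07, 2.14, 2.78 and 1.90 in heads and 0.12, −0.83, 0.01 and 0.07 in the CNS (difference 2.38, SE 0.25, adjusted p 0.00303). *CG7218* followed (1.76, SE 0.19, adjusted p 0.0137), resting on replicate 2 of the CNS as above. *NimC4*, an engulfment receptor gene of haemocytes and glia, stood at 2.07 in heads and 0.37 in the CNS (difference 1.70, SE 0.25, adjusted p 0.0413), with head values of 1.35, 0.94 and 2.99 on replicates 1 to 3 and none on replicate 4.

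The named calls with negative head less CNS values were *CG12892* (−1.17, SE 0.19, adjusted p 0.108), *CG14186* (−0.99, SE 0.18, adjusted p 0.143), *Slob*, which encodes a partner of the Slowpoke potassium channel (−0.92, SE 0.14, adjusted p 0.0385), and *chp*, which encodes the photoreceptor adhesion protein chaoptin (−0.91, SE 0.16, adjusted p 0.139). *CG14186* stood at −0.79 in heads and 0.20 in the CNS, and *chp* at −0.83 and 0.07. In the CNS *Slob* read −0.29, −0.22, 1.05 and 0.99 at this probe, split by dye, and −0.08 at its other probe. *CG14186* and *chp* also had their CNS arrays split by dye with no overlap. In heads *chp* read −0.15, −0.19 and −1.49 on replicates 1, 2 and 4, so that its Cy3 orientation, and most of its head value of −0.83, rested on replicate 4. *CG14186* read −0.32, −0.57 and −1.13 in heads on replicates 1 to 3, with its Cy3 orientation resting on replicate 3.

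**Figure D4:**
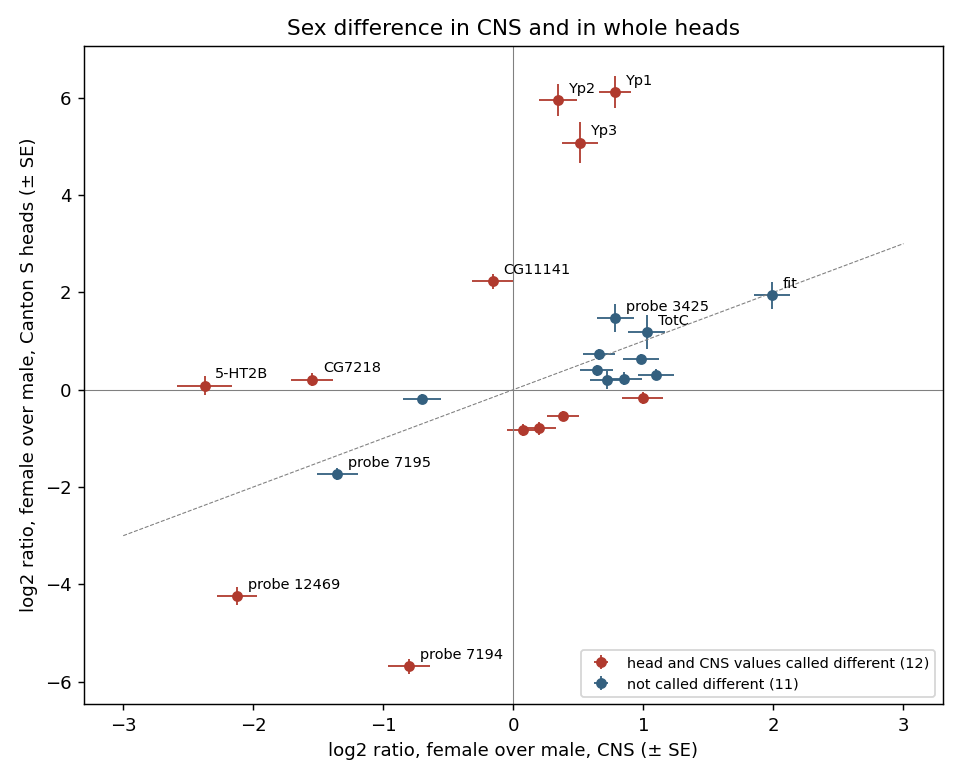
Log2 ratio of female over male in the CNS (horizontal axis) and in CS heads (vertical axis), with limma's SE, for 23 probes: those called in the CNS and tested in heads, the yolk protein genes, and the named genes with the largest called head less CNS differences in each direction (*NimC4* is not drawn). The dashed line marks equal ratios. *fit* lies on it, *Yp1*, *Yp2* and *Yp3* lie far above it, *5-HT2B* lies at 0.08 in heads, and the 12 red points were called different between the tissues.

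The X chromosome as a whole did not stand apart. The median log2 ratio of 1127 X-linked probes less that of 6030 autosomal probes was −0.035, −0.018, 0.0012 and 0.047 on replicates 1 to 4, with a mean of −0.0009 (SD 0.035, n = 4, exact two-sided sign-flip test p = 1, where the smallest p that 4 arrays allow is 0.125). The Cy5 arrays were below 0 and the Cy3 arrays above it. Of the called probes with a chromosome, 2 higher in females and 2 higher in males lay on the X, among 1127 tested probes. Chromosome arm 3R held the most calls, with 5 and 2, but also had the most tested probes, 1768. Of all tested probes 0.349% were called. No Y-linked probe was tested, and 10 of the called probes have no chromosome here.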

How the data were processed

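The deposited ratios are on a log2 scale, made by the authors from scanned spotted arrays: poor spots were removed by eye, the rest were kept where most pixels exceeded background, and ratios were lowess-normalised in Bioconductor (version not given in the sources used here). The log base was taken from the methods, and the direction, female over male on every array, from the channel labels, checked on the yolk protein genes in heads. Whether arrays were centred beyond lowess is unknown. Nothing was normalised again. Probes took their symbols from the array annotation and a current gene table (12913 of 16320 have 1; 3407 are unnamed here).

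R 4.3.3 and limma 3.58.1 fitted a mean and a dye term (females in Cy5 or Cy3) to probes measured on 3 or 4 arrays, with Benjamini-Hochberg adjustment over all tested probes and a threshold of 0.15. Errors are limma's moderated SE. A probe with 3 values leaves 1 residual degree of freedom. Head less CNS was fitted on 8 arrays with a dye term per tissue. The fits were tested on simulated data with independent errors for each probe and array, which cannot show disturbances shared by a whole array. Genes were named from all called probes, the 12 smallest p per direction with 1 sign on every array, the 3 smallest p per list, the yolk protein genes and genes discussed for the CNS in the paper, and the 6 largest dye and head less CNS values per direction; examples among lists, markers and dye genes were chosen after their values were seen. The comparison and the 27 gene lists were chosen with earlier results of these data known. Alternatives covered the dye term, the test, thresholds, missing values, scaling, probe averaging and single arrays left out.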

Additional observations from a re-analysis of the deposited data

Results flagged for a closer look

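Of 49 probes named here with 4 values, 5 had an array set apart from the other 3 by more than Dixon's critical value. Chance flags about 1 in 20 unselected groups. That rate does not apply directly here, since these probes were largely named for their values and some were split by dye. Probe 7194 read −1.52 on replicate 4, *CG1503* read −1.29 on replicate 2, *CG11141* read −0.83 on replicate 2, *Taf12L* read −0.23 on replicate 4, and *Slob* probe 9689 read 0.075 on replicate 2.

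The sex difference was called different between CS heads and CNS for 13 probes named here. The head less CNS value was 5.60 for *Yp2*, 5.33 for *Yp1*, 4.57 for *Yp3*, 2.46 for *5-HT2B*, 2.38 for *CG11141*, 1.76 for *CG7218* and 1.70 for *NimC4*. It was −4.88 for probe 7194, −2.11 for probe 12469, −1.17 for *CG12892*, −0.99 for *CG14186*, −0.92 for *Slob* probe 14118 and −0.91 for *chp*.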

How the results depend on the processing

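The 29 calls for sex became 5 without the dye term, 0 by the methods' test after Benjamini-Hochberg adjustment (202 at an unadjusted p under 0.05), 16 at a threshold of 0.05, 18 with values required on all 4 arrays, 13 with arrays centred on the median, 15 with arrays scaled to a common spread and 8 with a dye term shared with the *fru* CNS arrays. The shared-dye fit covered only the 7765 probes with enough values on the *fru* CNS arrays. Several of the 29, among them *Yp1*, *dhd* and *Obp99a*, were therefore not tested in it. With 1 array left out there were 13 to 45 calls, the fewest without replicate 4 (7 shared with the 29) and the most without replicate 1 (18 shared). *fit* and probe 12469 were called in each of these limma fits, and *dhd* in each fit on all 4 arrays that was run for it. Calls for the dye ranged from 576 (without replicate 2) to 3027 with 1 array left out. The 78 calls in CS heads became 35 without the dye term and 16 to 2870 with 1 array left out (16 without replicate 1, 17 without replicate 2, 703 without replicate 3, 2870 without replicate 4). The 19 head less CNS calls became 8 without the dye term, 9 with values on all 8 arrays and 6 to 25 with 1 CNS array left out (6 without replicate 2). With the replicate number as a block they were 8. Whether the numbers paired the tissues could not be settled, since the deviations used were from each tissue's mean and kept the dye effect. Those of same-numbered head and CNS arrays correlated at 0.00942, −0.107, −0.21 and 0.24. The highest correlations with a CNS array of another number were 0.0537, 0.111, 0.264 and 0.192. The X less autosome value was 0.0023 on probes with 4 values and −0.017 to 0.010 with 1 array left out. *CG11141* ranged from −0.40 to 0.081 with 1 array left out and was above 0 without replicate 2, and the averaged *Slob* probes stood at 0.15. The causes were not tested. With 3 arrays, 1 residual degree of freedom limits every count.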
